A study of Mus musculus with 4 samples.

Results

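Actin mRNAs of the sarcomere and of the cytoskeleton were followed in differentiating C2C12 myoblasts, a mouse muscle cell line, after silencing of the transcription factor MEF2A. The members were 4 actin genes chosen by symbol: Acta1, Actc1, Actb and Actg1. Values were analysed for 3 of them, Actc1, Actb and Actg1, out of 13824 gene symbols, and for their 17 transcripts out of 36231. Acta1, the skeletal muscle alpha actin, is not analysed here. The siMEF2A group was 2 libraries from cells transfected with siRNA against MEF2A, and the scrambled group was 2 libraries from cells given a scrambled siRNA. All 4 shared an siRNA dose of 30 nM, given with Lipofectamine, and 48 h of induced differentiation (2% horse serum), and were made with a TruSeq RNA kit. C2C12 is an immortal line and not muscle tissue. Whether the libraries of a group came from separate cultures is not said, so the p-values below cover a spread that may be technical. The design asks which genes change in level when MEF2A is silenced.

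Actin monomers assemble into filaments that carry myosin movement in the sarcomere and give shape, adhesion and motility to every cell. Vertebrate actins are encoded by a small family of very similar genes. Actc1 encodes cardiac alpha actin, the sarcomeric actin of the heart, which skeletal myoblasts also switch on early in differentiation. Actb and Actg1 encode the cytoplasmic beta and gamma actins present in nearly all cells, and Actb is widely used as a constant reference in expression assays. Serum response factor (SRF) regulates many actin genes through an element named the CArG box. MEF2 factors bind an element of their own, the MEF2 site, at many muscle genes.

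The promoter windows of Actc1 and Actg1 are shown because Actc1 passed the test below and Actg1 did not, and both windows hold a CArG box, marked in capitals. Each window runs 5′ to 3′ on the minus strand of GRCm38.p6 (the mm10 assembly), from 250 bases before the RefSeq start to 50 bases from it, at chr2:114052826-114053125 for Actc1 and at chr11:120348446-120348745 for Actg1. Actb has no window in the RefSeq promoter table used.
Actc1: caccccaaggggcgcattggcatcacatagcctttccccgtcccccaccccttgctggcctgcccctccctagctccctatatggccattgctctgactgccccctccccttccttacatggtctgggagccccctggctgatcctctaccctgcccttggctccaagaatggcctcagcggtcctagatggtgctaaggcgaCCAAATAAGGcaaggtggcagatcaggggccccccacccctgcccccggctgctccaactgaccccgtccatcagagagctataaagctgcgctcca
Actg1: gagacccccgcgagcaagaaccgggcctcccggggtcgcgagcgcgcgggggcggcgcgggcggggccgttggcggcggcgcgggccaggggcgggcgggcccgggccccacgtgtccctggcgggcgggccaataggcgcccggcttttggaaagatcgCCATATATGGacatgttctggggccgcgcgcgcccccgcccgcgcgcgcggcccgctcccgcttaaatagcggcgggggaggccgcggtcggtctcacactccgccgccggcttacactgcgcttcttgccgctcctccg
A search of both strands found 1 CArG box in the Actc1 window, 47 to 38 bases before the start, and 1 in the Actg1 window, 90 to 81 bases before it. Of 32851 promoter windows of the same length, 1.63% held such a match. No MEF2 site was matched in either window, against 3.19% of all windows. The E-box CANNTG, which myogenic factors bind, was matched once in each window, beginning 8 bases after the start in Actc1 and 141 bases before it in Actg1. E-boxes were matched in 72.3% of all windows. A TATA box, searched as TATAAA, was found 33 bases after the annotated Actc1 start, and in 13.6% of all windows. The GENCODE M21 main transcripts start 12 bases (Actc1) and 47 bases (Actg1) before these RefSeq starts. All distances given here thus depend on the start used. The Actc1 and Actg1 windows had 62.7% and 77.3% G and C. These are matches of letters in short windows, and elements elsewhere were not searched.

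**Figure D1:**
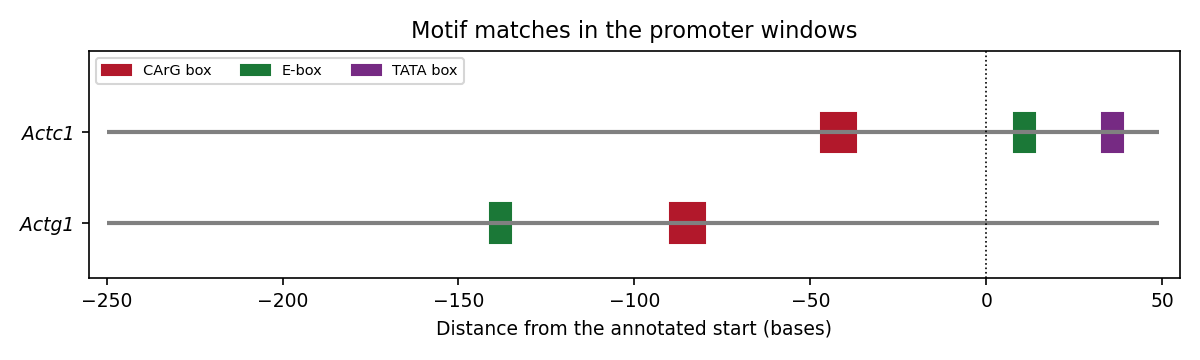
Motif matches in the promoter windows of Actc1 and Actg1, by distance in bases from the annotated RefSeq start (dotted line at 0). Each window holds 1 CArG box and 1 E-box, and the Actc1 window also holds a TATA box 33 bases after the start.

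The cytoplasmic actins are nearly the same protein, while their coding sequences differ at scattered bases. The opening coding bases show this, with those that differ between Actb and Actg1 in capitals (GENCODE M21 main transcripts, 60 bases from the start codon).
Actb: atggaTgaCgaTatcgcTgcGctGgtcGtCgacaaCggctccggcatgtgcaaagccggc
Actg1: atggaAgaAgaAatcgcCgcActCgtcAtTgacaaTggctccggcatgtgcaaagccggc
Within these 60 bases 9 differed, and over all 1128 coding bases 128 differed, an identity of 88.7%. Actc1 was further away, with 83.2% identity to Actb and 81.9% to Actg1 over 1128 aligned bases. A stretch of 50 bases was then taken as a stand-in for a read, whose true length is not given in the sources used here. None of the 1424 stretches of the Actc1 transcript, 0%, occurred in a transcript of another gene. For Actb 14.2% of stretches did (266 of 1871), of which 179 occurred in Lrrc58, 126 in Gm15725 and 30 in Actg1, and a stretch can occur in several genes. For Actg1 56.7% did, with 973 stretches in Gm12715 and 30 in Actb. Of stretches wholly within its coding sequence 100% did, and of its remaining stretches 0% did. How the authors' software divided reads from shared stretches is not given in the sources used here. The level of Actg1 is therefore uncertain, and that of Actb partly so.

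The targeted gene followed the labels: Mef2a was at 12.7 and 14.3 FPKM in siMEF2A libraries, against 25.8 and 32.2 FPKM in scrambled libraries (limma adjusted p = 3.35e-05). FPKM counts fragments relative to transcript length and to the library's total, so levels of different genes are compared per length. Of 11824 genes tested with limma, 204 (1.73%) passed at an adjusted p under 0.05, 48 higher (0.406%) and 156 lower (1.32%) in siMEF2A. With median-ratio scaling the counts were 13 higher and 131 lower. Relative depth, read from the lowest FPKM values, was 0.847 and 0.848 in siMEF2A libraries and 1.05 in scrambled replicate 2, with scrambled replicate 1 set at 1.0. This rests on the commonest ratio among 600 genes, shared by 11 to 17 of them, and absolute depth is unknown. Of 10 myotube markers 8 were measured and 7 fell, with summed levels of 431 and 464 FPKM in siMEF2A and 939 and 998 FPKM in scrambled. Of 9 markers of undifferentiated myoblasts 7 were measured, with summed levels of 1166 and 1300 FPKM in siMEF2A and 1025 and 1227 FPKM in scrambled, most of it Vim (1013 and 1155 FPKM in siMEF2A, 890 and 1091 FPKM in scrambled). In limma 0 of those 7 were called and 1 had an unadjusted p under 0.05, Ccnd1, the cell cycle gene cyclin D1, at 9.01 and 8.82 FPKM in siMEF2A and 5.85 and 6.89 FPKM in scrambled (limma adjusted p = 0.237). Of 10 markers of other cell types 0 had values to analyse. Fewer differentiated cells and less muscle mRNA per cell cannot be told apart in these bulk samples, and the part of differentiation state in the results below was not tested.

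Of the 3 actins, Actc1 fell on silencing and the cytoplasmic actins did not pass the test. Actc1 (ENSMUSG00000068614; mm10 chromosome 2, 114047282 to 114053548, minus strand) had levels of 128 and 126 FPKM in siMEF2A libraries, against 229 and 260 FPKM in scrambled libraries. Both siMEF2A values lay below both scrambled values (groups did not overlap, in either direction, for 28% of all genes tested), and the siMEF2A libraries were almost equal. Means were 127 ± 1.29 FPKM in siMEF2A and 244 ± 22.6 FPKM in scrambled (SD, n = 2 each), so that siMEF2A cells had 51.9% of the scrambled mean. The log2 fold change on the scale of FPKM + 1 was -0.94 (SE 0.18, limma adjusted p = 0.00110), with a 95% interval of 0.407 to 0.669 in fold. By level Actc1 ranked 646th of the genes tested in siMEF2A and 359th in scrambled. The authors' file gives it a locus of 114009601 to 114068324, far wider than the gene, and 1 transcript of 1473 bases (ENSMUST00000090269). No exonic base of Actc1, Actb or Actg1 is shared with a gene of the opposite strand in GENCODE M21.

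Actb (ENSMUSG00000029580, chromosome 5, 142903115 to 142906754, minus strand), the cytoplasmic beta actin, was at 812 and 919 FPKM in siMEF2A libraries, against 704 and 918 FPKM in scrambled libraries. Scrambled replicate 1 was the lowest of the 4 libraries, and the groups overlapped. The scrambled libraries differed from each other by 1.30-fold. Means were 865 ± 75.7 FPKM in siMEF2A and 811 ± 152 FPKM in scrambled (SD, n = 2 each). The log2 difference was 0.10 (SE 0.23, limma adjusted p = 1.0), with a 95% interval of 0.775 to 1.49 in fold. Without scrambled replicate 1 it was -0.09, so its direction rests on that library.

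Actg1 (ENSMUSG00000062825, chromosome 11, 120345690 to 120348542, minus strand), the cytoplasmic gamma actin, was at 784 and 937 FPKM in siMEF2A libraries, against 698 and 830 FPKM in scrambled libraries. The groups overlapped here as well, and in each group replicate 2 was the higher library, as for Actb. Means were 861 ± 108 FPKM in siMEF2A and 764 ± 93.6 FPKM in scrambled (SD, n = 2 each). The log2 difference was 0.17 (SE 0.23, limma adjusted p = 1.0), with a 95% interval of 0.816 to 1.55 in fold. For both cytoplasmic actins the interval holds no change, and reaches 1.49-fold for Actb and 1.55-fold for Actg1. Without the pseudogene copies of Actg1 described below, their levels could not be set in an order. Actb and Actg1 ranked 117th and 118th in siMEF2A and 129th and 137th in scrambled, and differed by less than the spread between libraries. Actc1 stood below both in every library.

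**Figure D2:**
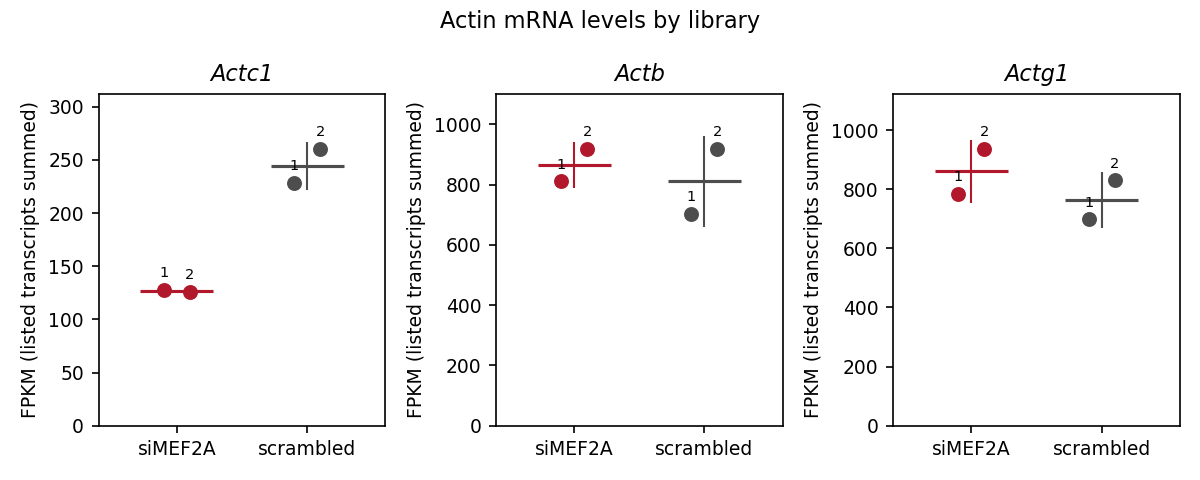
FPKM of Actc1, Actb and Actg1 in each library (points, numbered by replicate), with siMEF2A left of scrambled, the group mean (horizontal line) and SD (vertical line, n = 2). Only for Actc1 do the siMEF2A libraries, at 126 to 128 FPKM, lie apart from the scrambled libraries, at 229 to 260 FPKM.

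Processed pseudogenes that copy Actg1 had levels in near-constant proportion to it. Gm12715, a processed pseudogene on chromosome 4 in GENCODE M21, shares 973 of the 50-base stretches of Actg1 and was at 340 and 393 FPKM in siMEF2A and 305 and 374 FPKM in scrambled. That was 43.4% and 42.0% of the Actg1 level in siMEF2A libraries and 43.6% and 45.1% in scrambled libraries. Gm8399 and Actg-ps1, pseudogenes of the same kind, were at 2.03% to 2.57% of Actg1 in every library. Reads from the stretches that these genes share with Actg1 cannot be told from those of Actg1 with certainty. With the 3 copies added, an alternative chosen after the values were seen, Actg1 came to 1162 and 1372 FPKM in siMEF2A and 1035 and 1242 FPKM in scrambled (log2 difference 0.15, SE 0.25, limma adjusted p = 1.0). Counted in that way Actg1 stood above Actb in every library. The ranks, ratios, shares and sums given here use Actg1 without the copies.

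Ratios between the actins within a library do not change when all values of that library are scaled by a single factor. Quantile normalization is not such a scaling, and the ratios were not computed under it. Actc1 made up 7.41% and 6.35% of the summed FPKM of the 3 actins in siMEF2A libraries, against 14.0% and 13.0% in scrambled libraries. The groups did not overlap, and the values within a group were close together. Group means were 6.88% ± 0.747 in siMEF2A and 13.5% ± 0.745 in scrambled (SD, n = 2 each), a difference of -6.61 percentage points (two-sided exact permutation p = 0.333, the smallest that 2 against 2 libraries allow). The log2 ratio of Actc1 to Actb was -2.67 and -2.87 in siMEF2A and -1.62 and -1.82 in scrambled. The log2 ratio of Actc1 to Actg1 was -2.62 and -2.90 in siMEF2A and -1.61 and -1.67 in scrambled. Both ratios were thus lower in siMEF2A, by -1.05 and -1.12 on the log2 scale (two-sided exact permutation p = 0.333 each). These ratios to Actb and Actg1 were chosen after the values were seen. The log2 ratio of Actb to Actg1 was 0.05 and -0.03 in siMEF2A, against 0.01 and 0.15 in scrambled. These values overlapped and the difference of -0.07 was within the spread between libraries (two-sided exact permutation p = 0.667).

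The summed level of the 3 actins was 1724 and 1982 FPKM in siMEF2A, against 1630 and 2009 FPKM in scrambled. This sum, in which the cytoplasmic actins weigh most, overlapped between the groups. Acta1 is outside it.

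The 17 actin transcripts were tested with limma over 23600 transcripts, of which 53 (0.225%) were called, 7 higher (0.0297%) and 46 lower (0.195%). In limma 0 of the 17 were called, and 3 had an unadjusted p under 0.05. Among those 3 was the Actc1 transcript itself, which has the values of its gene but an adjusted p of 0.117 in this fit (SE 0.17, unadjusted p = 0.000496). The fit over transcripts had fewer prior degrees of freedom, 6.2 against 29.0 over genes. The call of Actc1 therefore rests on the fit over genes. The other 2 belonged to Actb, and both were lower. Groups did not overlap for 10 of the 17 (7 lower, 3 higher in siMEF2A), against 29.4% of all transcripts, and transcripts of a gene share fragments and are not independent.

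Most Actb and Actg1 mRNA was assigned to the main spliced transcript of each gene, which held 85.1% to 90.9% of its FPKM in every library. The Actb main transcript (ENSMUST00000100497, 1920 bases) was at 731 and 835 FPKM in siMEF2A and 621 and 832 FPKM in scrambled. The Actg1 main transcript (ENSMUST00000071555, 1952 bases) was at 695 and 836 FPKM in siMEF2A and 594 and 740 FPKM in scrambled. Second by mean level in scrambled libraries, in both genes, was a transcript that keeps the third intron. In Actb that intron is 454 bases long (chromosome 5, 142904783 to 142905236), and its transcript was at 16.1 and 15.7 FPKM in siMEF2A, against 26.5 and 18.4 FPKM in scrambled (log2 difference -0.46, SE 0.19, limma adjusted p = 0.851). In Actg1 the intron is 286 bases long (chromosome 11, 120347350 to 120347635), and its transcript was at 30.8 and 31.6 FPKM in siMEF2A, against 43.6 and 32.5 FPKM in scrambled (log2 difference -0.26, SE 0.18, limma adjusted p = 1.0). In both genes scrambled replicate 1 stood highest and the remaining 3 libraries were close together.

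Summed over the transcripts that GENCODE types as retained intron, 2 of Actb and 3 of Actg1, the same library stood apart. They made up 2.78% and 2.35% of Actb FPKM in siMEF2A, against 4.75% and 2.59% in scrambled. For Actg1 they made up 6.05% and 5.28% in siMEF2A, against 9.72% and 5.91% in scrambled. The groups did not differ beyond their spread (two-sided exact permutation p = 0.667 for each), and without scrambled replicate 1 the differences of -1.11 and -2.15 percentage points were -0.03 and -0.25. These shares were looked at after the values were seen. The remaining Actb transcript with an unadjusted p under 0.05, a non-coding processed transcript (ENSMUST00000167386), was at 5.16 and 4.65 FPKM in siMEF2A and 6.57 and 7.30 FPKM in scrambled (unadjusted p = 0.0288).

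**Figure D3:**
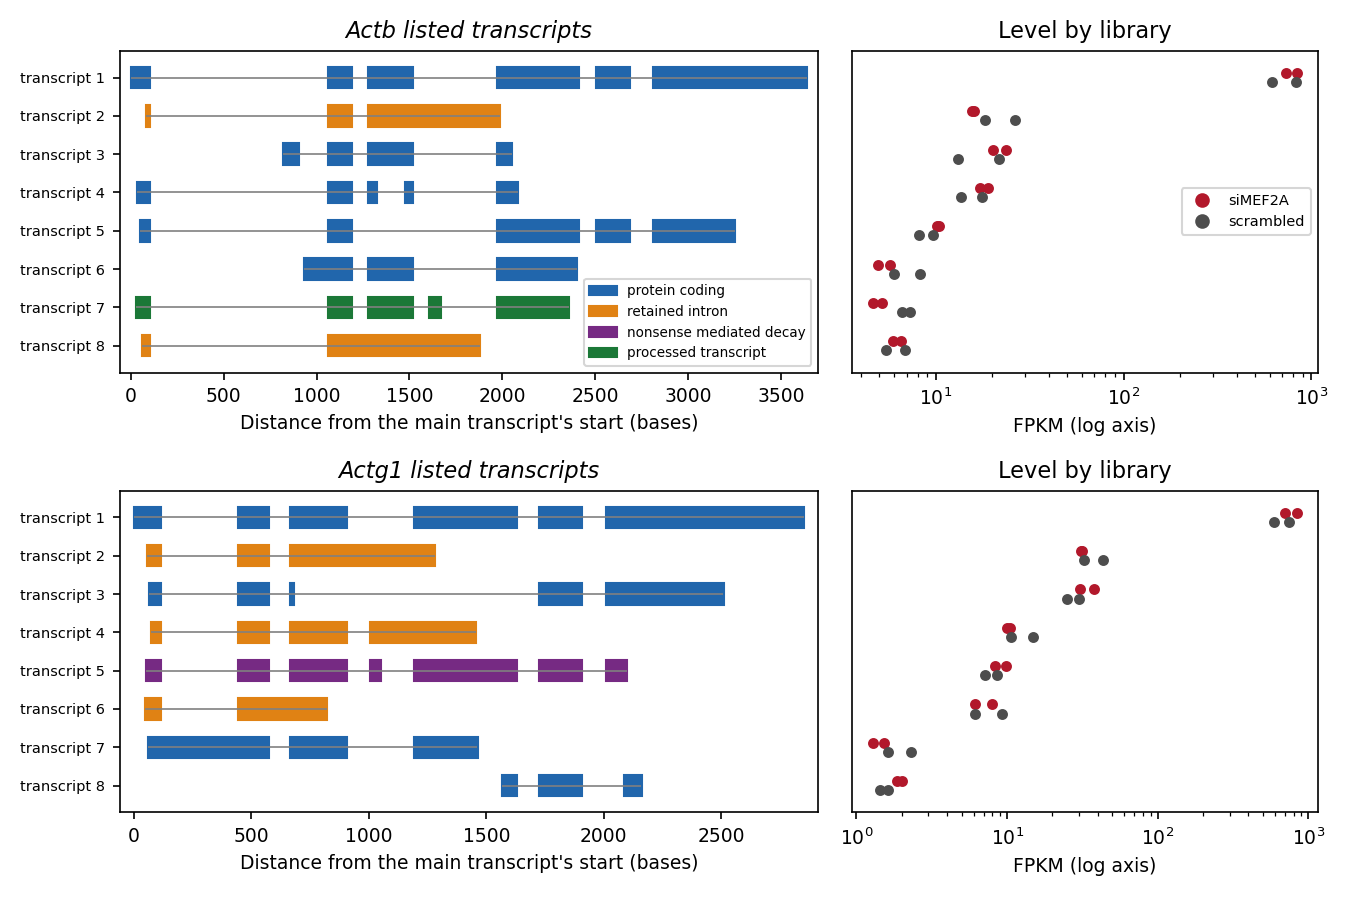
Listed transcripts of Actb and Actg1, ordered by mean level in scrambled, with exons (boxes, coloured by GENCODE type) placed by distance in bases from the start of the main transcript, and FPKM of each library on a log axis (siMEF2A above scrambled). Transcript 1 holds 85.1% to 90.9% of each gene's FPKM, and transcript 2, which keeps the third intron, is highest in scrambled replicate 1.

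**Figure D4:**
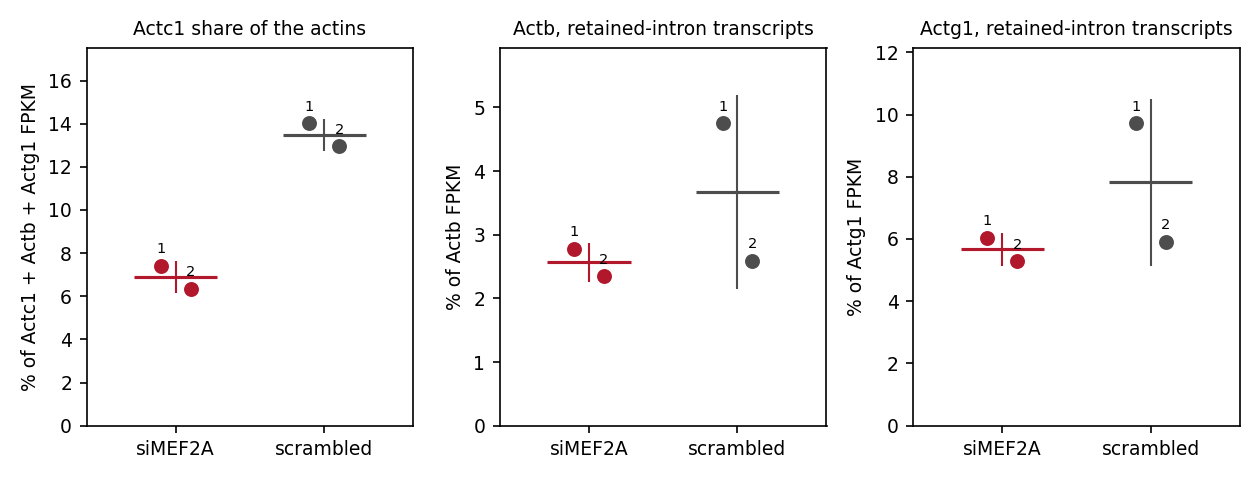
Percentages by library (points numbered by replicate, siMEF2A left of scrambled, with mean and SD, n = 2): Actc1 as a share of the FPKM of the 3 actins, and the retained-intron transcripts as a share of Actb and of Actg1. The Actc1 share separates the groups at 6.35% to 7.41% against 13.0% to 14.0%, whereas the intron shares set scrambled replicate 1 apart, at 4.75% and 9.72%.

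Genes for the proteins that share the sarcomeric thin filament with cardiac actin mostly fell. Of 15 thin filament genes tested 10 fell and 0 rose, with a median log2 fold change of -0.88, against 0.04 over all genes tested. Over all genes 1.32% fell and 0.406% rose. In limma 11 of the 15 had an unadjusted p under 0.05, all lower, against 755 of 11824 genes. The troponins, which make the filament respond to calcium, included Tnnc2 at 61.6 and 56.3 FPKM in siMEF2A and 177 and 184 FPKM in scrambled (log2 fold change -1.60, SE 0.16, limma adjusted p = 5.91e-08). Tnni2, Tnni1 and Tnnc1 were at 32.8%, 33.0% and 39.8% of their scrambled means (limma adjusted p at most 1.77e-05). Lmod3 and Lmod2, leiomodins that nucleate and lengthen sarcomeric actin filaments, fell to 47.5% and 47.7%. Both were low, with Lmod2 at 1.96 and 2.27 FPKM in siMEF2A and 3.53 and 5.33 FPKM in scrambled. Lmod2 did not pass when scrambled replicate 2 was left out (limma adjusted p = 0.169). Neb, the giant filament protein nebulin, was at 51.0% with an adjusted p of 0.0385, and did not pass without siMEF2A replicate 1 (0.243), without scrambled replicate 2 (0.332) or under several other settings. Neb was near the minimum mean of 1 FPKM, at 0.884 and 1.09 FPKM in siMEF2A and 1.74 and 2.13 FPKM in scrambled. Its log2 fold change was -0.56, and -0.90 with a pseudocount of 0.1. Tpm1, Tpm2, Tpm3 and Tpm4, the tropomyosin genes, ran from 70.9% to 118% and did not pass in the reported fit. With a replicate block 11 of the thin filament genes were lower.

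Among 11 other actin and actin-related genes 1 fell and 0 rose, with a median log2 fold change of 0.04. Over all genes tested 1.32% fell and 0.406% rose. Only 1 of the 11 had an unadjusted p under 0.05 in limma. The gene that fell was Actg2, the smooth muscle gamma actin, at 15.8 and 15.3 FPKM in siMEF2A and 24.4 and 28.6 FPKM in scrambled (log2 fold change -0.73, SE 0.15, limma adjusted p = 0.00369). Leaving out siMEF2A replicate 2 or scrambled replicate 2 ended the call (limma adjusted p = 0.0641 and 0.0556). Acta2, the smooth muscle alpha actin, was at 455 and 541 FPKM in siMEF2A and 576 and 711 FPKM in scrambled, above Actc1 in every library, and did not pass (limma adjusted p = 1.0). Actr2 and Actl6a, of the Arp2/3 and chromatin remodelling complexes, were at 118% and 113% and did not pass.

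Genes that nucleate or cap filaments gave 3 lower and 0 higher of 25 tested, with a median of 0.08. Over all genes tested 1.32% were lower and 0.406% higher. Of the 4 with an unadjusted p under 0.05 in limma, 1 (Tmod3) was higher, and 755 of all 11824 genes had such a p. Beside the leiomodins the third lower gene was Cobl, an actin nucleator, at 61.9% (limma adjusted p = 0.0435). Cobl lost its call without siMEF2A replicate 1 (0.584), siMEF2A replicate 2 (0.0519) or scrambled replicate 2 (0.429), and under several other settings. Tmod3, a capping tropomodulin found outside muscle as well, was at 17.1 and 15.5 FPKM in siMEF2A and 9.53 and 12.6 FPKM in scrambled (log2 difference 0.53, limma adjusted p = 0.0898). Without scrambled replicate 2 this list had 1 higher, Tmod3 (limma adjusted p = 0.0131), and 1 lower. Tmod3 also passed with robust moderation (0.0337), at a minimum mean of 5 FPKM (0.0458) and with further small RNA types left out (0.0320). In limma 3 of 26 crosslinking and anchoring genes had an unadjusted p under 0.05, all lower. After adjustment 1 of the 26 fell and 0 rose (median -0.02). It was Pdlim3, a Z-disc protein that binds alpha-actinin, at 55.1% (limma adjusted p = 0.0241), a call lost without siMEF2A replicate 2 (0.162), scrambled replicate 1 (0.105) or scrambled replicate 2 (0.136), and under quantile normalization (0.0649). Pdlim3 was low, at 1.68 and 1.53 FPKM in siMEF2A and 2.86 and 2.98 FPKM in scrambled. Actn3, Pdlim7 and Enah, further anchoring or filament-end genes, were at 67.6%, 70.3% and 78.0% and did not pass. Actn3 passed without scrambled replicate 1 (0.0188) or siMEF2A replicate 2 (0.0372), with robust moderation (0.0200), at a minimum mean of 5 FPKM (0.0369) and with further small RNA types left out (0.0225).

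Of 19 genes of monomer binding and turnover limma called 0, and 0 had an unadjusted p below 0.05 (median 0.04). Over all genes tested 1.73% were called and 755 of 11824 had such a p. At that share lists this short can hold 0 calls. Tmsb10 and Tmsb4x, thymosins that hold actin monomers in reserve, were at 73.0% and 77.8% of scrambled and did not pass. Gsn, the filament-severing gelsolin, was at 123% and Twf1, a monomer-binding twinfilin, at 112%. Among 15 genes of actin folding and modification limma called 0, and 0 were below an unadjusted p of 0.05 (median 0.04), with Pfdn4, Cct8, Cct2 and Cct7 between 85.2% and 110%.

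Of 17 SRF target genes 1 fell and 0 rose (median 0.04), against 1.32% lower and 0.406% higher over all genes tested. In limma 4 of the 17 had an unadjusted p under 0.05, all lower, against 755 of 11824 genes. Tagln, the smooth muscle protein transgelin, was at 28.2 and 29.0 FPKM in siMEF2A and 49.9 and 49.4 FPKM in scrambled (log2 fold change -0.78, SE 0.15, limma adjusted p = 0.00184). Its adjusted p was 0.0525 without siMEF2A replicate 1. Myl9, Ankrd1 and Nexn were at 70.4%, 70.2% and 77.2% and did not pass, and Ankrd1 passed without scrambled replicate 1 (0.0486).

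Ywhaz, Tbp and Tfrc, which like Actb are commonly used as reference genes, were at 113%, 89.6% and 91.9% of their scrambled means and did not pass. Actb was at 107% and Actg1 at 113%.

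**Figure D5:**
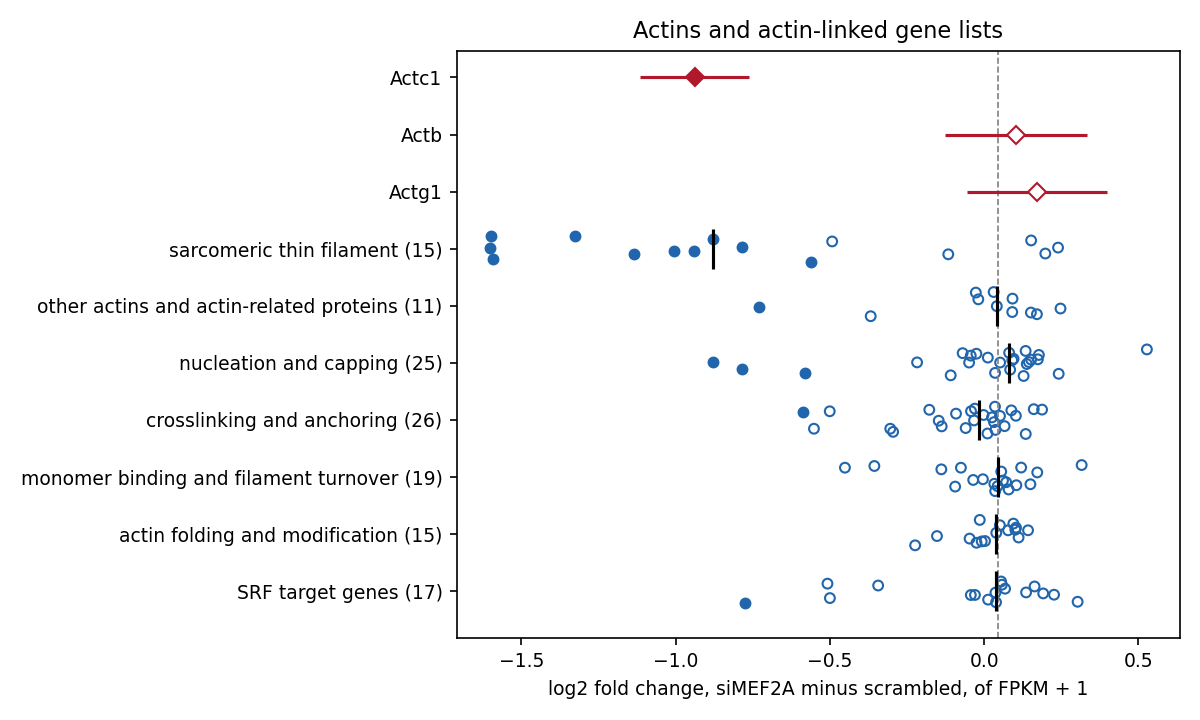
Log2 fold changes, siMEF2A minus scrambled, on the scale of FPKM + 1. Actins are diamonds with SE bars, list members are circles (number tested in parentheses), filled symbols passed limma at an adjusted p under 0.05, black ticks are list medians, and the dashed line at 0.04 is the median over all genes. Actc1 at -0.94 sits among the thin filament genes, whose median is -0.88.

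The genes whose profile over the 4 libraries was most like that of each actin were found among 6452 genes averaging 10 FPKM or more, by the root mean square difference of centred log2(FPKM + 1) values. For Actc1 they were Klhl41, a muscle protein of the kelch family, Bst2, the antiviral membrane protein tetherin, and Tnnt2, cardiac troponin T, at 0.06, 0.07 and 0.07 log2 units. Klhl41 was at 11.2 and 11.1 FPKM in siMEF2A and 19.1 and 21.8 FPKM in scrambled. Bst2 was at 73.1 and 67.7 FPKM in siMEF2A and 114 and 139 FPKM in scrambled. Tnnt2 was at 123 and 139 FPKM in siMEF2A and 235 and 269 FPKM in scrambled, nearly the level of Actc1 itself. Bst2 did not pass without siMEF2A replicate 2 (limma adjusted p = 0.0786), nor Tnnt2 without siMEF2A replicate 1 (0.0984). Nearest to Actb were Ankrd13a, Etfdh and Atp8b2, all within 0.01 log2 units, and nearest to Actg1 were Slc25a24, Slc25a30 and Camk2d, also within 0.01. None of these 6 passed the test. The Actb and Actg1 profiles were 0.06 log2 units apart, while that of Actc1 was 0.53 from Actb and 0.56 from Actg1. With 4 libraries such likeness is a description only.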

How the data were processed

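Gene expression was measured by RNA-seq in 4 libraries. The authors deposited FPKM per Ensembl transcript and library, per the file headers, made on mm10 with tools that include TopHat and Cufflinks, per the submitters' processing notes. The annotation and any scaling between libraries are not stated in the labels. Transcript FPKM were added up per symbol, omitting 26 small-RNA symbols, and genes or transcripts with a mean of at least 1 FPKM were tested as log2(FPKM + 1) with limma 3.58.1 in R 4.3.3 (intensity trend, two-sided, Benjamini-Hochberg adjustment over all features, called under 0.05). A fold change on that scale understates the change of low genes. The fit had 2 residual and 29.0 prior degrees of freedom, and was tested on simulated data. Single ratios were compared with exact permutation tests. Transcript types and exons came from GENCODE mouse M21, which held 97.3% of the transcripts, and promoter windows from RefSeq (GRCm38.p6), which matched 2 of the 3 genes. The members, lists and tests were chosen with earlier results of these data known. Genes named were the members, Mef2a, up to 4 genes of each list with the smallest p, and the 3 genes most like each member, with others chosen after their values were seen. Acta1 is not analysed here, so planned ratios to it were not run. Alternatives were another pseudocount, filter, scaling, moderation, a replicate block, and leaving out each library. Some results of the lists are not reported here.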

Additional observations from a re-analysis of the deposited data

How the results depend on the processing

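The fall of Actc1 kept its direction and its call under all 15 alternatives tried, with log2 fold changes from -1.03 to -0.84 and limma adjusted p from 3.31e-05 to 0.0326. Several of the 15 left the Actc1 log2 fold change as it was, at -0.94. The limma fit over transcripts, not among the 15, did not call the same Actc1 values (adjusted p = 0.117). Actb and Actg1 passed under none of their alternatives. The Actb difference ran from -0.089 to 0.29 with each library left out, below 0 without scrambled replicate 1 alone, and that of Actg1 from 0.04 to 0.30. Without the minor transcripts the Actc1 share of the actins differed by -7.41 percentage points, and by -7.14 to -6.08 with each library left out. Calls over all genes numbered 204 in the reported fit, 134 at a minimum mean of 5 FPKM, 118 after quantile normalization and 508 with a replicate block, and 184 to 227 with each library left out. The 53 calls over transcripts became 134 at a minimum mean of 5 FPKM, 97 with robust moderation, and 83 to 317 with each library left out. In limma 0 transcripts were called without a filter on low values (2179 at an unadjusted p under 0.05) or with the block (1987). The causes of these shifts were not tested. Replicate numbers were not shown to pair libraries: deviations of same-numbered libraries correlated at 0.29 across genes, from 2 pairs. The numbers are those of the sample titles, the deposited scrambled files are numbered differently, and every value with the block depends on that numbering. With the replicate block Actc1 had a limma adjusted p of 6.03e-05, Actb 0.661 and Actg1 0.401. Acta2, Actn3, Ankrd1, Ccnd1, Myl9, Nexn, Pdlim7, Tmod3, Tmsb10 and Tmsb4x were among the genes that passed with it (0.00349 to 0.0436). These names are not complete: of the thin filament genes 11 were lower with the block, against 10 in the reported fit. Absolute depth is unknown, so no counting interval was given.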
